A study of Mus musculus with 32 samples.

Results

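Neuronal and non-neuronal nuclei of the small intestine were compared in mice of the Francis Crick Institute, with 4 libraries of each, which is 8 of the 32 libraries of the series. The libraries were chosen by their column names in the deposited count table, and all genes of the table entered. The neuronal group (Crick_SiPos) was EGFP-positive nuclei and the non-neuronal group (Crick_SiNeg) was EGFP-negative nuclei of the same layer, the longitudinal muscle with the attached myenteric plexus. The mice of every group were C57BL/6, specific pathogen free, and had received AAV9-CaMKII-EGFPKASH into a vein 5 weeks earlier. This adeno-associated virus carries EGFP fused to a KASH domain, which anchors the protein in the nuclear envelope, under a CaMKII promoter, so the sort reports nuclei that took up the virus and used that promoter. Sexes, ages and the number of mice per library are not given in the labels. Nuclear RNA was amplified with the Ovation RNA-Seq System V2, which keeps no strand information, and read as single ends. The remaining groups used here were the same 2 sorts from small intestine of mice of the University of Bern and from colon of Crick mice, with 4 libraries each.

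The myenteric plexus lies between the longitudinal and circular muscle and drives peristalsis. Its excitatory motor neurons release acetylcholine and tachykinins, its inhibitory motor neurons release nitric oxide and vasoactive intestinal peptide, and sensory neurons and interneurons complete the circuit. Its neighbours are smooth muscle cells, interstitial cells of Cajal, which pace the muscle, PDGFRA-positive cells, enteric glia and macrophages, and nuclei of all of these fall into the EGFP-negative gate if the virus leaves them unlabelled.

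Library totals were 4417829 to 8192741 expected counts in neuronal and 4566384 to 7171337 in non-neuronal nuclei, and levels below are CPM (counts scaled to the same library size) after TMM scaling of these 8 libraries. A level of 3 counts, the upper limit that a count of 0 allows, was 0.352 to 0.66 CPM in the neuronal libraries and 0.373 to 0.756 CPM in the non-neuronal ones. Such limits and all counting intervals cover counting error only, since amplified reads are not independent molecules. On the main axis of variation, with 62.1% of the variance, the neuronal libraries lay at 79.5 to 114.8 and the non-neuronal libraries at -109.3 to -87.8. The second axis, with 16.6%, set the neuronal library 2 (-95.7) and the non-neuronal library 2 (-75.6) apart from the other 6 libraries, which lay at 5.2 to 67.2. The same libraries had the largest share of counts on the mitochondrial chromosome, 16% for the neuronal library 2 against 2.76% to 7.96% in the other neuronal libraries, and 23.6% for the non-neuronal library 2 against 6.28% to 9.34% in the other non-neuronal libraries. The non-neuronal library 4 was closest to the neuronal group on the main axis, at -87.8.

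Of 17924 genes tested with edgeR's quasi-likelihood test, 5301 (29.6%) passed an adjusted p of 0.05. In neuronal nuclei 2624 genes (14.6%) were higher and 2677 (14.9%) were lower. These shares are the background for every count of list members called higher or lower below. In 2721 genes (15.2%) every neuronal library was above every non-neuronal library, and in 2754 (15.4%) every one was below. The median log2 fold change over all genes tested was -0.03. Differences were large: 1507 of the genes called higher and 1624 of the genes called lower differed at least 4-fold, and the median log2 fold change of the called genes was 2.30 and -2.30. Without both libraries numbered 2 the counts were 2870 higher and 3032 lower, and without the non-neuronal library 4 they were 2675 higher and 2552 lower. Fitted with all 32 libraries, whose groups share 1 estimate of spread, the counts were 1404 higher and 1090 lower. Fold changes below are neuronal over non-neuronal on the log2 scale with their standard error (SE) from the fit over 4 libraries of each sort, and in bulk nuclei fewer cells of a type and less RNA per cell cannot be told apart.

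**Figure D1:**
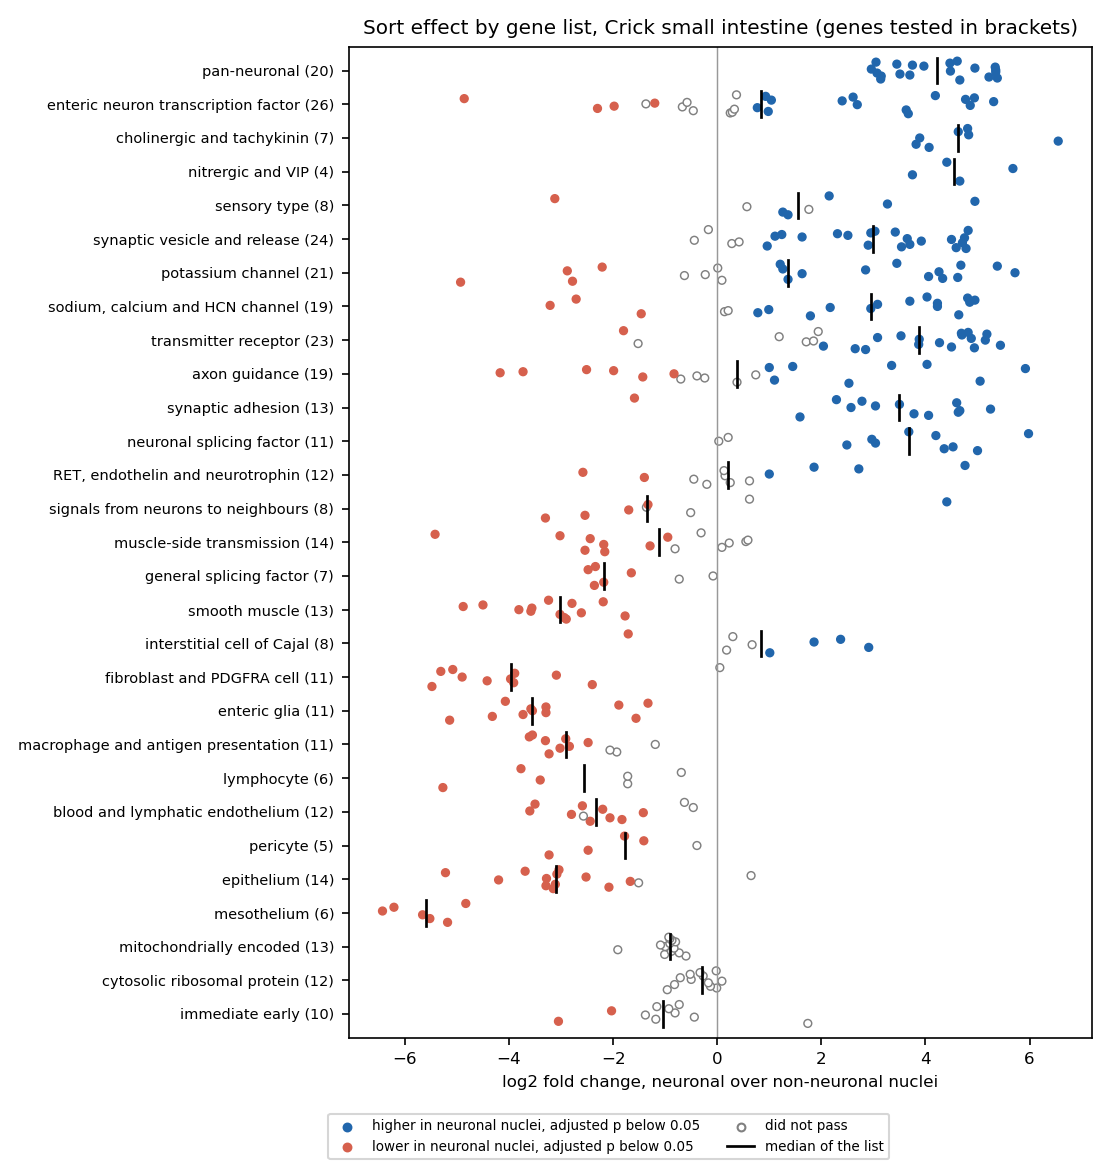
Log2 fold change, neuronal over non-neuronal nuclei (x axis), of every tested gene in the gene lists with 4 or more tested genes (rows, number of tested genes in brackets). Blue points passed the test as higher in neuronal nuclei, red points passed as lower, open points did not pass, and the black line is the median of the list, from 4.63 for the list of acetylcholine and tachykinin transmission to -5.59 for the mesothelial list.

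All 20 genes of the pan-neuronal list were higher in neuronal nuclei, with a median log2 fold change of 4.22 beside -0.03 over all genes tested and a background of 14.6% called higher. Elavl4, which encodes the RNA-binding protein HuD, had 327, 371, 335 and 267 CPM in neuronal nuclei, against 6.72, 8.57, 4.33 and 14.7 CPM in non-neuronal nuclei. Every neuronal library was above every non-neuronal library (log2 fold change 5.22 ± 0.38, adjusted p 2.92e-06). Prph, the intermediate filament peripherin of peripheral neurons, had 194, 615, 207 and 408 CPM in neuronal nuclei, against 7.99, 13.1, 6.7 and 7.46 CPM in non-neuronal nuclei, and the neuronal libraries 2 and 4 were the high ones (5.35 ± 0.45, adjusted p 5.79e-06). Uchl1, the ubiquitin hydrolase PGP9.5 that stains enteric ganglia, had 65.1, 119, 93.5 and 109 CPM in neuronal nuclei, against 3.63, 1.01, 4.92 and 5.72 CPM in non-neuronal nuclei, also without overlap (4.61 ± 0.43, adjusted p 1.02e-05). For Rbfox3, which encodes the nuclear antigen NeuN, levels were low but separate, at 14.7, 33.8, 16.5 and 37.9 CPM in neuronal nuclei, against 1.45, 2.52, 0.394 and 0.498 CPM in non-neuronal nuclei. For Rbfox3 the log2 fold change was 4.48 ± 0.58 (adjusted p 0.000112). Snap25, a SNARE protein of synaptic vesicle fusion, had 525, 368, 606 and 509 CPM in neuronal nuclei, against 11.3, 11.6, 16.3 and 25.1 CPM in non-neuronal nuclei. For Snap25 the log2 fold change was 4.95 ± 0.34 (adjusted p 2.58e-06). Snhg11, a nuclear non-coding RNA of neurons, had 2822 to 4044 CPM in neuronal nuclei, against 43.1 to 151 CPM in non-neuronal nuclei. The smallest fold change of the list was that of Scg2 at 2.96, and the sum of the list was 6149 to 7795 CPM in neuronal nuclei, against 212 to 406 CPM in non-neuronal nuclei, with the non-neuronal library 4 as the highest of its group.

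The transgene is driven by a CaMKII promoter, and the labels do not say of which CaMKII gene. Camk2a, the alpha subunit of calcium/calmodulin-dependent kinase II, had 199, 426, 219 and 311 CPM in neuronal nuclei, against 9.98, 7.56, 9.65 and 21.6 CPM in non-neuronal nuclei. For Camk2a the log2 fold change was 4.54 ± 0.41 (adjusted p 8.45e-06). Camk2b, the beta subunit, had 102, 364, 104 and 159 CPM in neuronal nuclei, against 3.99, 9.32, 4.73 and 6.09 CPM in non-neuronal nuclei. For Camk2b the log2 fold change was 4.92 ± 0.49 (adjusted p 1.71e-05). For the delta and gamma subunits, which many tissues express, the groups overlapped, and Camk2d (-0.11 ± 0.29, adjusted p 0.839) and Camk2g (-0.17 ± 0.21, adjusted p 0.61) did not pass. These 4 genes, and Rest below, stand outside the lists and were chosen after their values were seen.

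The promoters of several neuronal genes carry the RE1 element, which is bound by the repressor REST and keeps neuronal genes silent in other cells. RefSeq promoters of GRCm38.p6, from 250 bases before to 50 bases after each start, were searched on both strands. The search was for the left part of the element, TTCAGCACC, for its right part, and for the whole element, which starts with the left part. The right part was searched in the exact form that ends the capitals of Lhx3 below, whereas the whole element leaves some of these positions free. The whole elements of Syn1 and Lhfpl5 thus hold no match to the right part as searched. The whole element was in 3 of 32851 promoters (0.00913%), those of Syn1, Lhfpl5 and Lhx3. These are shown with Scg2, which holds the left part across its start, as stretches of the promoter on the strand of the gene, 5′ to 3′, with the matched bases in capitals.
Syn1: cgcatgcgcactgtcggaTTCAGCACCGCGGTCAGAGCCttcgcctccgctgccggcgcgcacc
Lhfpl5: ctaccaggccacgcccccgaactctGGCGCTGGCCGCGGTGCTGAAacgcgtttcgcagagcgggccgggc
Lhx3: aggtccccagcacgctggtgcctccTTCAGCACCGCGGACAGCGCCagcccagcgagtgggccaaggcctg
Scg2: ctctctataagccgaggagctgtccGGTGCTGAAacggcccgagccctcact
In GRCm38.p6 these stretches are chrX:20921105-20921168 (minus strand, Syn1), chr17:28575616-28575686 (plus strand, Lhfpl5), chr2:26208247-26208317 (minus strand, Lhx3) and chr1:79440007-79440058 (minus strand, Scg2). The element of Syn1 lies 232 to 212 bases before the start, that of Lhfpl5 78 to 58 bases before it on the opposite strand, and that of Lhx3 43 to 23 bases before it.

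Syn1, a synapsin that tethers synaptic vesicles, had 68.8, 138, 68.9 and 66 CPM in neuronal nuclei, against 5.45, 11.8, 9.26 and 4.98 CPM in non-neuronal nuclei, with the neuronal library 2 as the high one and no overlap (3.45 ± 0.38, adjusted p 3.23e-05). Scg2, the granin secretogranin II of dense-core vesicles, had 265, 293, 178 and 195 CPM in neuronal nuclei, against 16.2, 24.4, 24.6 and 53.5 CPM in non-neuronal nuclei. For Scg2 the log2 fold change was 2.96 ± 0.37 (adjusted p 8.03e-05). Lhfpl5, a partner of the mechanotransduction channel in hair cells, was low in every library, at 4.25 to 7.39 CPM in neuronal nuclei, against 0 to 1.26 CPM in non-neuronal nuclei (3.57 ± 0.76, adjusted p 0.00328). Lhx3, a LIM transcription factor of the pituitary and of motor neurons, was at 0 to 0.812 CPM in neuronal nuclei, against 0 to 1.51 CPM in non-neuronal nuclei, too low to test. The left part was in 2 of the 14 pan-neuronal genes with a RefSeq promoter (Scg2 and Syn1), in 1 of 20 synaptic vesicle genes (Unc13a) and in 1 of 10 synaptic adhesion genes (Nlgn1). It was in none of the matched members of the other lists, against 0.433% of all genes with a promoter. Among tested genes with a promoter it was in 27 of 1624 called higher (1.66%), 5 of 1798 called lower (0.278%) and 57 of 11565 in all (0.493%). The right part was in 6 of 1624 called higher (0.369%), 6 of 1798 called lower (0.334%) and 30 of 11565 in all (0.259%), against 0.167% of all genes with a promoter. Among the lists it was in 1 of 20 synaptic vesicle genes (Unc13a), in 1 of 12 epithelial genes (Krt8) and in no other matched member. A match describes these letters only. Rest itself was lower in neuronal nuclei, with 24.2, 28.9, 15.6 and 16 CPM in neuronal nuclei, against 40.3, 55.9, 42.4 and 43 CPM in non-neuronal nuclei. For Rest the log2 fold change was -1.10 ± 0.28 (adjusted p 0.00895).

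Of the transcription factors of the enteric neuron list 14 of 26 tested were higher and 4 lower in neuronal nuclei, beside backgrounds of 14.6% called higher and 14.9% called lower, with a median of 0.85. Ebf3, a helix-loop-helix factor of late neuronal differentiation, had 77, 85.1, 82.9 and 105 CPM in neuronal nuclei, against 5.26, 12.9, 4.92 and 5.6 CPM in non-neuronal nuclei. For Ebf3 the log2 fold change was 3.63 ± 0.34 (adjusted p 1.2e-05). Myt1l, a zinc finger factor that represses other cell fates in neurons, differed by 4.86 ± 0.40 (adjusted p 4.57e-06), and Tlx2, a homeobox factor of enteric ganglia, by 4.19 ± 0.66 at 5.31 to 11.7 CPM in neuronal nuclei, against 0 to 0.756 CPM in non-neuronal nuclei. Hand2, which enteric neurons and gut muscle share, had 43.3, 104, 34.9 and 50.1 CPM in neuronal nuclei, against 37.4, 86.2, 29.4 and 32.7 CPM in non-neuronal nuclei, and the groups overlapped (0.33 ± 0.42, adjusted p 0.626). Pbx3, a TALE homeobox factor, was at 25.2 to 39.1 CPM in neuronal nuclei, against 39.8 to 67.3 CPM in non-neuronal nuclei, separate but past no threshold (-0.58 ± 0.25, adjusted p 0.113).

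Among the 4 factors called lower were Sox6, Isl1 and Meis2. Sox6, an SRY-box factor, had 4.4, 5.85, 1.95 and 1.17 CPM in neuronal nuclei, against 106, 82.7, 85.5 and 107 CPM in non-neuronal nuclei, with no overlap (-4.86 ± 0.45, adjusted p 1e-05). Meis2, a TALE homeobox factor, had 187, 155, 122 and 92.4 CPM in neuronal nuclei, against 502, 592, 608 and 483 CPM in non-neuronal nuclei. For Meis2 the log2 fold change was -1.98 ± 0.26 (adjusted p 0.000135). Isl1 was at 0 to 1.76 CPM in neuronal nuclei, against 4.35 to 6.8 CPM in non-neuronal nuclei (-2.30 ± 0.71, adjusted p 0.0272), and its call was lost in 4 of the 8 fits that each left out 1 library (adjusted p 0.0542 to 0.0864).

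Every tested gene of acetylcholine and tachykinin transmission was higher in neuronal nuclei (7 of 7, median 4.63). Chat, the enzyme that makes acetylcholine, had 110.4, 133, 108 and 152 CPM in neuronal nuclei, against 1.09, 1.01, 0.985 and 1.99 CPM in non-neuronal nuclei. The neuronal libraries lay close together, without overlap (6.55 ± 0.33, adjusted p 1.6e-06). Slc5a7, the choline transporter of cholinergic terminals, had 207, 102, 200.2 and 151 CPM in neuronal nuclei, against 1.45, 5.29, 3.15 and 15.9 CPM in non-neuronal nuclei. For Slc5a7 the log2 fold change was 4.63 ± 0.61 (adjusted p 0.000121). Tac1, the precursor of substance P, had 108, 49.7, 94.1 and 120.3 CPM in neuronal nuclei, against 2, 5.8, 2.95 and 2.74 CPM in non-neuronal nuclei (4.81 ± 0.41, adjusted p 5.91e-06), and Penk, the precursor of enkephalins, had 36.9, 33.5, 24.4 and 45.9 CPM in neuronal nuclei, against 3.27, 3.02, 1.38 and 1.87 CPM in non-neuronal nuclei. For Penk the log2 fold change was 3.89 ± 0.37 (adjusted p 1.21e-05). The vesicular acetylcholine transporter gene Slc18a3 differed by 4.83 ± 0.64 (adjusted p 0.000128), and its highest non-neuronal value, 2.61 CPM, was that of library 4.

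Inhibitory transmission was higher in the same nuclei (4 of 4 tested, median 4.54). Nos1, neuronal nitric oxide synthase, had 433, 1019, 573 and 589 CPM in neuronal nuclei, against 9.44, 4.54, 13.6 and 22.6 CPM in non-neuronal nuclei. For Nos1 the log2 fold change was 5.68 ± 0.50 (adjusted p 7.97e-06). Vip, the precursor of vasoactive intestinal peptide, had 78.7, 26.3, 43.6 and 26.2 CPM in neuronal nuclei, against 1.27, 2.02, 2.17 and 2.61 CPM in non-neuronal nuclei (4.41 ± 0.45, adjusted p 2.12e-05), and Gal, the precursor of galanin, had 69.5, 31, 53.7 and 41.5 CPM in neuronal nuclei, against 2, 2.02, 2.17 and 7.71 CPM in non-neuronal nuclei. For Gal the log2 fold change was 3.75 ± 0.49 (adjusted p 0.000115). The neuronal library 1 was the highest for Vip and Gal and the lowest for Nos1. Cartpt, the precursor of CART peptides, differed by 4.66 ± 0.64 at 9.15 to 12.8 CPM in neuronal nuclei, against 0 to 0.746 CPM in non-neuronal nuclei. Npy and Adcyap1, which encode neuropeptide Y and PACAP, were too low to test, at 1.14 to 2.66 CPM in neuronal nuclei, against 0 to 0.871 CPM in non-neuronal nuclei for Npy.

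Of genes used to mark sensory neurons 5 of the 8 tested were higher (median 1.56), and 3 were without the non-neuronal library 1 or 3. Sst, the precursor of somatostatin, had 31.2, 19.7, 15.6 and 12.4 CPM in neuronal nuclei, against 3.99, 2.02, 6.5 and 4.98 CPM in non-neuronal nuclei. For Sst the log2 fold change was 2.15 ± 0.42 (adjusted p 0.00201). Calcb, which encodes beta-CGRP of intrinsic sensory neurons, had 8.14, 2.11, 8.68 and 3.29 CPM in neuronal nuclei, against 1.82, 2.02, 2.56 and 0.249 CPM in non-neuronal nuclei, and its groups overlapped (1.76 ± 0.70, adjusted p 0.0809). With the sample number as a block Calcb passed (log2 fold change 1.82, adjusted p 0.0465), and it also passed without both libraries numbered 2 (2.13, adjusted p 0.0436). Nmu, the precursor of neuromedin U, was at 1.06 to 2.66 CPM in neuronal nuclei, against 0.788 to 3.53 CPM in non-neuronal nuclei and was not tested. Nog, the BMP antagonist noggin that marks a sensory class in the mouse, was not tested either. It had 2 counts in the neuronal group and 123 in the non-neuronal group, which is 67.7 times the CPM in non-neuronal nuclei (exact 95% counting interval 18.3 to 565). These are counts pooled over the libraries, and the interval does not hold the spread between them. Piezo2, a mechanically gated channel, was the member of the list called lower, with 18.7, 29.4, 23.6 and 28.9 CPM in neuronal nuclei, against 208, 234, 172 and 263 CPM in non-neuronal nuclei. For Piezo2 the log2 fold change was -3.12 ± 0.25 (adjusted p 4.27e-06).

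**Figure D2:**
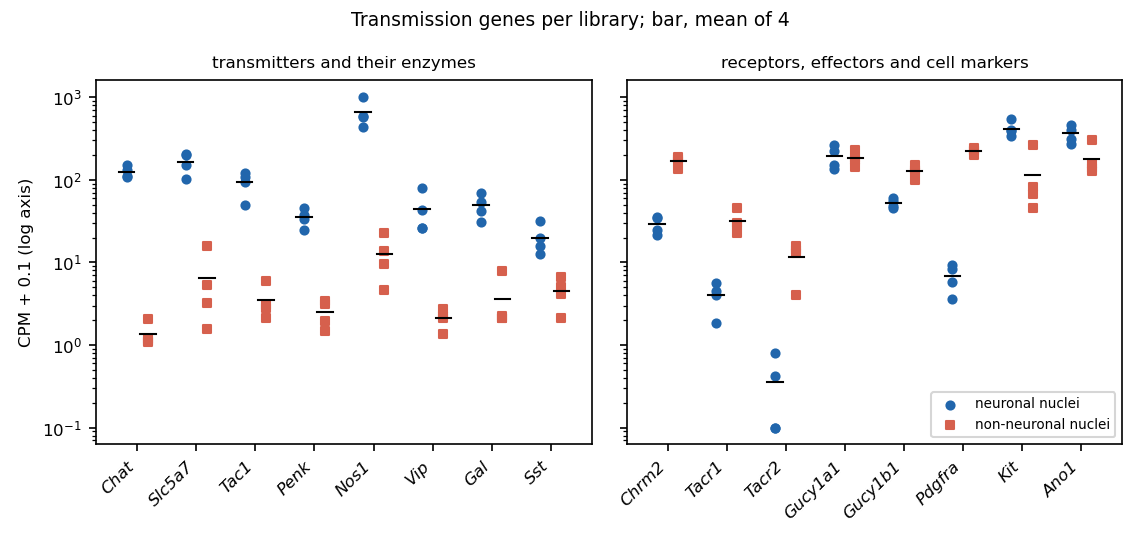
CPM plus 0.1 on a log axis in each of the 8 libraries for genes of transmitter synthesis (left panel) and for receptors, effectors and cell markers (right panel), with neuronal nuclei as blue circles, non-neuronal nuclei as red squares and bars at the mean of 4 libraries. The 8 transmitter genes are higher in neuronal nuclei without overlap, Chrm2, Tacr1, Tacr2, Gucy1b1 and Pdgfra are lower without overlap, and Gucy1a1 and Ano1 overlap.

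The machinery of vesicle release was higher in neuronal nuclei for 20 of 24 tested genes, and none was called lower (median 2.99). Unc13a, which primes vesicles for fusion, had 218, 714, 252 and 524 CPM in neuronal nuclei, against 11.1, 12.3, 10.8 and 25.7 CPM in non-neuronal nuclei. For Unc13a the log2 fold change was 4.82 ± 0.48 (adjusted p 1.72e-05). In the promoter window of Unc13a both parts of RE1 lay on the opposite strand, the left part at bases 23 to 31 from the start and the right part at bases 5 to 14. Rims2, an active zone scaffold, differed by 4.50 ± 0.29 (adjusted p 1.95e-06) and Snap91, a clathrin adaptor of vesicle recycling, by 4.75 ± 0.37 (adjusted p 3.75e-06). Sv2c, a vesicle glycoprotein, was at 49.4 to 75.2 CPM in neuronal nuclei, against 4.54 to 9.95 CPM in non-neuronal nuclei (2.95 ± 0.31, adjusted p 2.67e-05). Rims1, Vamp2, Rab3a and Nsf did not pass. Vamp2, a vesicle SNARE that other secretory cells also use, had 60 to 102 CPM in neuronal nuclei, against 65 to 99.5 CPM in non-neuronal nuclei.

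Ion channels were mostly higher. Among potassium channels 13 of 21 tested were higher and 4 lower (median 1.36), and among sodium, calcium and HCN channels 14 of 19 were higher and 3 lower (median 2.95). Scn3a, a neuronal voltage-gated sodium channel, had 570.0, 503, 580.0 and 377 CPM in neuronal nuclei, against 14.3, 17.6, 12.4 and 25.6 CPM in non-neuronal nuclei. For Scn3a the log2 fold change was 4.85 ± 0.32 (adjusted p 1.97e-06). Scn11a, the sodium channel Nav1.9 of enteric and sensory neurons, had 57.4, 90.8, 63.1 and 56.7 CPM in neuronal nuclei, against 5.81, 13.1, 4.53 and 8.46 CPM in non-neuronal nuclei. For Scn11a the log2 fold change was 3.08 ± 0.35 (adjusted p 4.5e-05). Kcnj3, a G protein-gated inward rectifier that opioid receptors open, had 79.8, 129, 60.2 and 85.6 CPM in neuronal nuclei, against 0.545, 2.52, 1.97 and 1.74 CPM in non-neuronal nuclei (5.72 ± 0.43, adjusted p 3.22e-06), and its partner Kcnj6 differed by 4.26 ± 0.44. Cacna1b, the N-type calcium channel of nerve terminals, differed by 4.64 ± 0.35 at 313 to 642 CPM in neuronal nuclei, against 13.3 to 24.5 CPM in non-neuronal nuclei.

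The channels called lower in neuronal nuclei were Kcna1, Kcna2, Kcnj8, Kcnn3, Scn7a, Cacna1c and Hcn4. Kcna1, a delayed rectifier of axons and glia, had 3.96, 3.9, 1.77 and 1.17 CPM in neuronal nuclei, against 90, 79.9, 66 and 88.2 CPM in non-neuronal nuclei. For Kcna1 the log2 fold change was -4.93 ± 0.40 (adjusted p 4.27e-06). Kcnn3, the small-conductance channel SK3 of PDGFRA-positive cells, had 75, 91.8, 85.9 and 72.1 CPM in neuronal nuclei, against 302, 367, 449 and 384 CPM in non-neuronal nuclei. For Kcnn3 the log2 fold change was -2.21 ± 0.22 (adjusted p 1.84e-05). Cacna1c, the L-type calcium channel of smooth muscle, was at 253 to 350.2 CPM in neuronal nuclei, against 449 to 1192 CPM in non-neuronal nuclei (-1.46 ± 0.30, adjusted p 0.00301). Kcnj8, a pore subunit of ATP-sensitive channels in mural cells, was at 3.64 to 10.6 CPM in neuronal nuclei, against 31.8 to 64.4 CPM in non-neuronal nuclei (-2.88 ± 0.38, adjusted p 0.000124), Scn7a, a sodium-sensing channel of glia, at 74.5 to 172 CPM in neuronal nuclei, against 508 to 963 CPM in non-neuronal nuclei, Hcn4 at 2.2 to 8.33 CPM in neuronal nuclei, against 37 to 60.9 CPM in non-neuronal nuclei and Kcna2 at 18 to 30.8 CPM in neuronal nuclei, against 139 to 205 CPM in non-neuronal nuclei. Kcnma1, the BK channel of muscle and neurons, was called higher at 333 to 463 CPM in neuronal nuclei, against 141 to 220.0 CPM in non-neuronal nuclei (1.26 ± 0.23, adjusted p 0.00135).

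Receptors for transmitters were higher for 17 of 23 tested genes and lower for 1 (median 3.87). Chrna3, the ganglionic nicotinic subunit that carries fast transmission between enteric neurons, had 208, 265, 239.9 and 188 CPM in neuronal nuclei, against 6.35, 4.79, 2.76 and 14.7 CPM in non-neuronal nuclei (4.94 ± 0.46, adjusted p 1.02e-05), and its partner Chrnb4 differed by 5.44 ± 0.44. Oprm1, the mu opioid receptor, had 86, 81.2, 101 and 70.5 CPM in neuronal nuclei, against 3.27, 2.52, 1.58 and 5.35 CPM in non-neuronal nuclei. For Oprm1 the log2 fold change was 4.69 ± 0.36 (adjusted p 3.87e-06). Htr3a, the serotonin-gated channel, had 22.7, 29.7, 28.5 and 16.7 CPM in neuronal nuclei, against 2.9, 1.26, 3.35 and 3.73 CPM in non-neuronal nuclei. For Htr3a the log2 fold change was 3.08 ± 0.38 (adjusted p 7.91e-05). Delta and kappa opioid receptors were higher too, by 4.70 ± 0.52 for Oprd1 and 5.18 ± 0.50 for Oprk1. The member called lower was Tacr3, the receptor for neurokinin B, at 0.974 to 4.23 CPM in neuronal nuclei, against 5.71 to 12 CPM in non-neuronal nuclei (-1.80 ± 0.49, adjusted p 0.0155). Tacr3 did not pass without the non-neuronal library 1 or the neuronal library 3 (adjusted p 0.054 and 0.057).

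Adhesion molecules of the synapse were higher for 12 of 13 tested genes (median 3.50), whereas axon guidance genes went both ways, with 8 of 19 higher and 6 lower (median 0.38). Cntnap2 differed by 3.78 ± 0.27 and Lsamp by 2.57 ± 0.25, and the member called lower was the GPI-anchored Opcml at 2.82 to 8.93 CPM in neuronal nuclei, against 12.2 to 27.7 CPM in non-neuronal nuclei (-1.59 ± 0.42, adjusted p 0.013). Slit1, a secreted repellent of axons, had 47.9, 135, 42 and 59.9 CPM in neuronal nuclei, against 0.726, 0.252, 1.18 and 2.11 CPM in non-neuronal nuclei. For Slit1 the log2 fold change was 5.92 ± 0.57 (adjusted p 1.35e-05). Sema3a, a secreted repellent that acts on neuropilin receptors, had 3.74, 5.85, 4.25 and 5.16 CPM in neuronal nuclei, against 83.5, 65.3, 70.5 and 125 CPM in non-neuronal nuclei, and the groups were separate in the opposite direction (-4.17 ± 0.31, adjusted p 3.13e-06). The other genes called lower were Sema3c, Sema3d, Sema3e, the netrin Ntn1 and the Slit receptor Robo2 (-0.83 ± 0.25, adjusted p 0.0233). The Robo2 call was lost in 5 of the 8 fits without 1 library (adjusted p 0.0577 to 0.0911) and with no filter on low counts (0.077). Among guidance receptors, Dcc, which binds netrin, was at 6.98 to 8.86 CPM in neuronal nuclei, against 0 to 2.77 CPM in non-neuronal nuclei (2.53 ± 0.74, adjusted p 0.0209) and Plxna4 did not pass (-0.39 ± 0.26, adjusted p 0.314). Without the non-neuronal library 1 or 3 Dcc did not pass (adjusted p 0.0547 and 0.0525).

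Splicing regulators of neurons were higher for 9 of 11 tested genes with none lower (median 3.68). In the list of general splicing factors 5 of 7 tested genes were lower and none higher (median -2.18). That list also holds regulators of muscle and epithelium, such as Rbpms and Esrp1. Srrm4, which drives the inclusion of neuronal microexons, had 149, 251, 189.6 and 228 CPM in neuronal nuclei, against 8.71, 21.7, 13 and 20.5 CPM in non-neuronal nuclei. For Srrm4 the log2 fold change was 3.68 ± 0.33 (adjusted p 8.78e-06). Its paralog Srrm3 had 40.2, 106, 53 and 92.3 CPM in neuronal nuclei, against 0.908, 1.51, 1.38 and 0.871 CPM in non-neuronal nuclei. For Srrm3 the log2 fold change was 5.98 ± 0.43 (adjusted p 2.92e-06). Rbfox1 differed by 4.20 ± 0.27 at 58.8 to 66.2 CPM in neuronal nuclei, against 2.77 to 4.18 CPM in non-neuronal nuclei. Nova1 had 26, 14.6, 24.1 and 29.3 CPM in neuronal nuclei, against 24.9, 20.4, 23.4 and 23.1 CPM in non-neuronal nuclei, and its groups overlapped (0.03 ± 0.27, adjusted p 0.949), as did those of Ptbp2 (0.21 ± 0.29, adjusted p 0.653) and of its repressor Ptbp1 (-0.08 ± 0.27, adjusted p 0.868). Rbpms, an RNA-binding protein of smooth muscle, had 126, 110.3, 85.4 and 94.5 CPM in neuronal nuclei, against 499, 725, 532 and 561 CPM in non-neuronal nuclei. For Rbpms the log2 fold change was -2.48 ± 0.24 (adjusted p 1.48e-05). The epithelial regulator Esrp1 was called lower at 0.22, 7.47, 0.886 and 1.41 CPM in neuronal and 27.4, 5.8, 11.4 and 7.71 CPM in non-neuronal nuclei, where the neuronal library 2 overlapped the non-neuronal group (-2.36 ± 0.81, adjusted p 0.0456). That call was lost in 6 of the 8 fits that each left out 1 library.

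Receptors through which the enteric nervous system is built and kept were mixed, with 4 of 12 tested genes higher and 2 lower (median 0.20). The background was 14.6% called higher and 14.9% called lower, and the share called lower was near it. Ret, the receptor tyrosine kinase for GDNF-family ligands, had 206, 287, 219.7 and 297 CPM in neuronal nuclei, against 2.72, 4.03, 2.95 and 26.1 CPM in non-neuronal nuclei. No library overlapped, and among non-neuronal libraries number 4 was the high one (4.76 ± 0.69, adjusted p 0.000238). Gfra1, the co-receptor that binds GDNF, had 30.3, 41.3, 35.6 and 35.8 CPM in neuronal nuclei, against 32.9, 18.6, 19.3 and 57.1 CPM in non-neuronal nuclei, with overlap (0.15 ± 0.35, adjusted p 0.804). Gfra2, the neurturin co-receptor, was higher at 33.4 to 58.6 CPM in neuronal nuclei, against 21.9 to 28.6 CPM in non-neuronal nuclei (1.00 ± 0.25, adjusted p 0.00879), and Ntrk3, the neurotrophin-3 receptor, at 168 to 209 CPM in neuronal nuclei, against 46.6 to 56.3 CPM in non-neuronal nuclei (1.86 ± 0.20, adjusted p 3.05e-05).

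The ligand Gdnf was lower in neuronal nuclei, with 3.52, 4.22, 6.02 and 5.63 CPM in neuronal nuclei, against 11.1, 20.4, 10.8 and 9.58 CPM in non-neuronal nuclei (-1.40 ± 0.38, adjusted p 0.0132), and this call was lost without both libraries numbered 2 (-1.06, adjusted p 0.0525) and without the neuronal library 1 (adjusted p 0.0502). Ednrb, the endothelin receptor of enteric progenitors and glia, did not pass (-0.45 ± 0.43, adjusted p 0.499). Its ligand Edn3 was at 13 to 22.9 CPM in neuronal nuclei, against 3.99 to 21.6 CPM in non-neuronal nuclei and did not pass either (0.62 ± 0.44, adjusted p 0.349), but it did without the non-neuronal library 4 (log2 fold change 1.20, adjusted p 0.0466).

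Among signals between neurons and neighbouring cells, 1 of 8 tested genes was higher in neuronal nuclei and 4 were lower (median -1.35). The background was 14.6% called higher and 14.9% called lower, and the share called higher was near it. Nrg1, the ligand of ERBB receptors on glia and other cells, had 124, 116, 122 and 127 CPM in neuronal nuclei, against 1.82, 9.07, 4.92 and 7.21 CPM in non-neuronal nuclei. For Nrg1 the log2 fold change was 4.41 ± 0.40 (adjusted p 8.91e-06). Bmp2, a growth factor that muscularis macrophages make for enteric neurons in the mouse, had 0.88, 1.46, 0.354 and 0.587 CPM in neuronal nuclei, against 4.54, 3.02, 5.91 and 19 CPM in non-neuronal nuclei. For Bmp2 the log2 fold change was -3.30 ± 0.70 (adjusted p 0.00327). Csf1, the macrophage growth factor, had 35.6, 56.8, 28.2 and 26.5 CPM in neuronal nuclei, against 42.8, 50.4, 40.6 and 75.7 CPM in non-neuronal nuclei, with overlap (-0.51 ± 0.31, adjusted p 0.26). Without both libraries numbered 2 Csf1 passed as lower (log2 fold change -0.84, adjusted p 0.0425). Kitl, the ligand of the KIT receptor, had 34.3, 14.5, 22.9 and 15.4 CPM in neuronal nuclei, against 57.7, 31.2, 56.9 and 71.6 CPM in non-neuronal nuclei, where the neuronal library 1 overlapped the non-neuronal library 2 (-1.33 ± 0.34, adjusted p 0.011).

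Genes through which muscle and its partner cells read these transmitters were lower for 8 of 14 tested and higher for none (median -1.12), and 1 was higher without the neuronal or the non-neuronal library 4. Chrm2, the M2 muscarinic receptor of smooth muscle, had 34.1, 24.8, 35.4 and 21.2 CPM in neuronal nuclei, against 179, 136, 169.8 and 188 CPM in non-neuronal nuclei. For Chrm2 the log2 fold change was -2.54 ± 0.25 (adjusted p 1.45e-05). Tacr2, the neurokinin A receptor of gut muscle, had 0, 0.325, 0.709 and 0 CPM in neuronal nuclei, against 15.6, 13.9, 13 and 3.98 CPM in non-neuronal nuclei (-5.42 ± 0.83, adjusted p 0.000355), and Tacr1, the substance P receptor, was at 1.76 to 5.52 CPM in neuronal nuclei, against 22.4 to 45.4 CPM in non-neuronal nuclei (-3.02 ± 0.39, adjusted p 0.000112). Of the 2 subunits of soluble guanylate cyclase, the receptor for nitric oxide, Gucy1b1 had 54.8, 60.6, 45.5 and 47.7 CPM in neuronal nuclei, against 126, 153, 133 and 98.8 CPM in non-neuronal nuclei. For Gucy1b1 the log2 fold change was -1.29 ± 0.22 (adjusted p 0.000771). The other subunit, Gucy1a1, was at 137 to 266 CPM in neuronal nuclei, against 143 to 231 CPM in non-neuronal nuclei and did not pass (0.09 ± 0.26, adjusted p 0.844). Prkg1, the cGMP-dependent kinase, was called lower with overlap (-0.95 ± 0.28, adjusted p 0.0232) and lost its call in 5 of the 8 fits without 1 library (adjusted p 0.051 to 0.103). The purinergic receptor P2ry1 did not pass (0.23 ± 0.38, adjusted p 0.718). Pde5a, which degrades cGMP, was at 202 to 345 CPM in neuronal nuclei, against 157 to 201 CPM in non-neuronal nuclei and did not pass (0.59 ± 0.23, adjusted p 0.0697). Pde5a passed as higher with the sample number as a block (log2 fold change 0.57, adjusted p 0.0224). It also passed with DESeq2 (0.6, adjusted p 0.0366) and without the neuronal library 4 (0.78, adjusted p 0.0261).

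Markers of the other cells of the muscle layer were lower in neuronal nuclei, apart from those of interstitial cells of Cajal. All 13 smooth muscle genes were lower (median -3.02, background 14.9%). Acta2, smooth muscle actin, had 85.3, 78.3, 89.6 and 31.9 CPM in neuronal nuclei, against 454, 716, 418 and 544 CPM in non-neuronal nuclei. For Acta2 the log2 fold change was -2.90 ± 0.35 (adjusted p 6.03e-05). Myh11, the smooth muscle myosin heavy chain, had 452, 500.4, 518 and 167 CPM in neuronal nuclei, against 4314, 12681, 4048 and 2003 CPM in non-neuronal nuclei, with the non-neuronal library 2 as the highest (-3.81 ± 0.60, adjusted p 0.000415). Myocd, the coactivator of the smooth muscle programme, differed by -4.88 ± 0.55 at 0.822 to 7.8 CPM in neuronal nuclei, against 91 to 195 CPM in non-neuronal nuclei. The sum of the list was 813 to 1619.7 CPM in neuronal nuclei, against 7778 to 25308 CPM in non-neuronal nuclei.

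Fibroblasts and PDGFRA-positive cells gave 10 of 11 tested genes lower (median -3.97). Pdgfra, the platelet-derived growth factor receptor that marks the fibroblast-like partners of smooth muscle, had 5.72, 9.09, 8.33 and 3.52 CPM in neuronal nuclei, against 226, 197, 232 and 242 CPM in non-neuronal nuclei. For Pdgfra the log2 fold change was -5.08 ± 0.33 (adjusted p 1.96e-06). Enteric glia gave 11 of 11 lower (median -3.55). Sox10, the glial and neural crest transcription factor, had 1.54, 2.76, 1.59 and 1.64 CPM in neuronal nuclei, against 26.9, 50.9, 26.8 and 24.4 CPM in non-neuronal nuclei. For Sox10 the log2 fold change was -4.07 ± 0.38 (adjusted p 1.13e-05). In both sorts library 2 was the high one for Sox10. S100b, a calcium-binding protein of glia, was the weakest of the list (-1.33 ± 0.42, adjusted p 0.0313) and lost its call in 6 of the 8 fits without 1 library (adjusted p 0.0635 to 0.0971), with no filter on low counts (0.16) and without both libraries numbered 2 (-1.31, adjusted p 0.0598).

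Among immune and vascular markers, of which none was called higher, sums were 26 to 46.4 CPM in neuronal nuclei, against 147 to 315 CPM in non-neuronal nuclei for macrophages and 129 to 249 CPM in neuronal nuclei, against 883 to 1056 CPM in non-neuronal nuclei for pericytes. Of macrophage and antigen presentation genes 8 of 11 were lower (median -2.91), and Csf1r, the receptor for macrophage growth factor, had 3.52, 0.974, 1.77 and 4.58 CPM in neuronal nuclei, against 16.2, 21.2, 20.7 and 21 CPM in non-neuronal nuclei. For Csf1r the log2 fold change was -2.84 ± 0.45 (adjusted p 0.000428). Of lymphocyte genes 3 of 6 were lower (median -2.56), of endothelial genes 9 of 12 (median -2.32) and of pericyte genes 4 of 5 (median -1.78). Without the non-neuronal library 1 or the neuronal library 2, 5 lymphocyte genes were lower. Pecam1, an adhesion molecule of endothelium, had 1.54, 3.57, 3.72 and 1.53 CPM in neuronal nuclei, against 6.54, 20.4, 17.5 and 3.73 CPM in non-neuronal nuclei. For Pecam1 the log2 fold change was -2.20 ± 0.59 (adjusted p 0.0136), and its call was lost with limma-voom (adjusted p 0.0655) and without the neuronal library 1 or 4 or the non-neuronal library 3 (0.0509 to 0.0556).

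Epithelium and the outer lining of the gut were also represented in the non-neuronal gate. Of epithelial genes 12 of 14 were lower in neuronal nuclei (median -3.10), and Muc2, the mucin of goblet cells, had 10.6, 14.3, 8.86 and 2.58 CPM in neuronal nuclei, against 382, 309, 569 and 79.7 CPM in non-neuronal nuclei. For Muc2 the log2 fold change was -5.22 ± 0.65 (adjusted p 7.86e-05). The non-neuronal library 4 was the lowest of its group for Muc2, Epcam, Vil1 and Cdh1. All 6 mesothelial genes were lower (median -5.59), and Upk3b, a uroplakin of mesothelium, had 0.44, 1.14, 0 and 1.17 CPM in neuronal nuclei, against 37, 36.5, 50 and 99.5 CPM in non-neuronal nuclei. For Upk3b the log2 fold change was -6.21 ± 0.63 (adjusted p 1.87e-05). Mast cell and pancreatic acinar genes were too low to test, with list sums of 0.354 to 4.06 CPM in neuronal nuclei, against 0.995 to 3.53 CPM in non-neuronal nuclei for mast cells and 0 to 5.72 CPM in neuronal nuclei, against 0.788 to 7.84 CPM in non-neuronal nuclei for acinar cells. Neither of the 2 erythroid genes tested was called by edgeR, DESeq2 or limma-voom, and 0 were at an unadjusted p below 0.05 in these fits, against 1 with the sample number as a block.

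**Figure D3:**
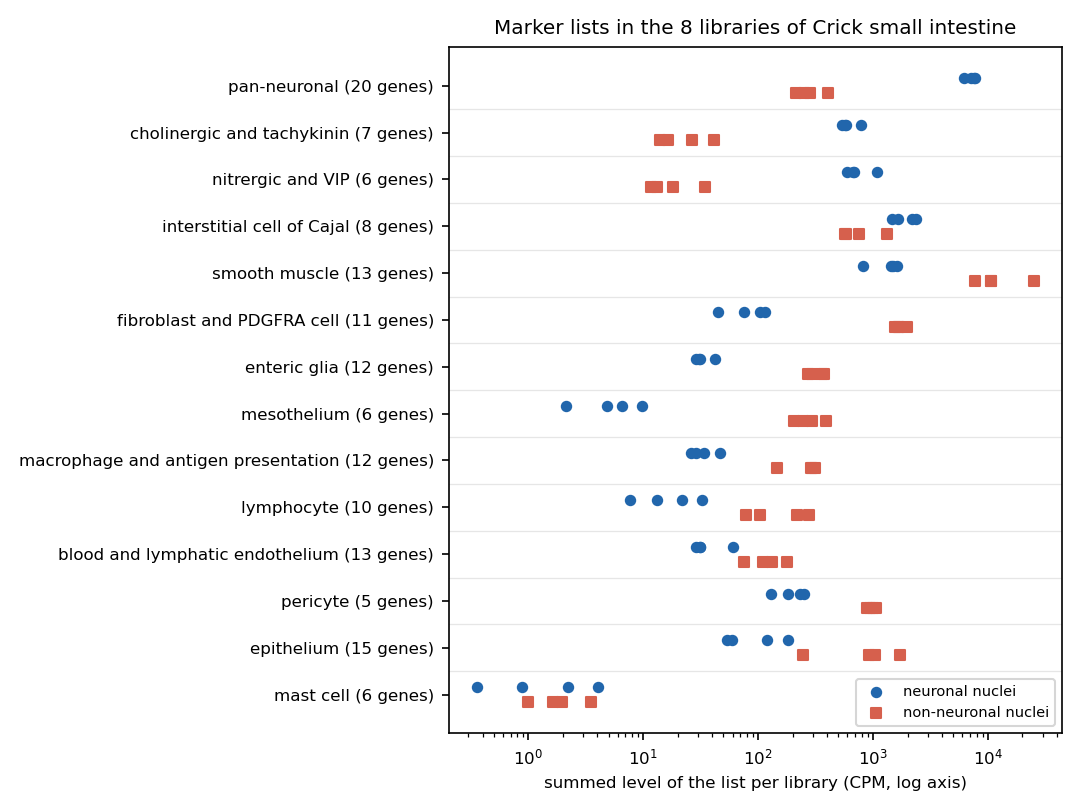
Summed CPM of 14 marker lists on a log axis, with the 4 neuronal libraries as blue circles and the 4 non-neuronal libraries as red squares. The pan-neuronal, cholinergic and nitrergic lists and that of interstitial cells of Cajal are higher in all 4 neuronal libraries, the lists from smooth muscle to epithelium are lower, and the mast cell list overlaps below 5 CPM.

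For interstitial cells of Cajal the direction was the opposite. Of the 8 genes of their list 4 were higher in neuronal nuclei, 1 was lower and 3 did not pass (median 0.84). Kit, the receptor tyrosine kinase that defines these cells in the muscle layer, had 538, 399, 336 and 386 CPM in neuronal nuclei, against 66.4, 46.1, 82.1 and 261 CPM in non-neuronal nuclei, with library 4 as the high one among non-neuronal libraries (1.86 ± 0.47, adjusted p 0.00994). Without that library the fold change of Kit was 2.70 (adjusted p 8.7e-05). With all 32 libraries in 1 fit Kit did not pass (1.84, adjusted p 0.102), nor did Ano1 (1.00, adjusted p 0.339). Etv1, an ETS factor of interstitial cells that some neurons also express, had 631, 518, 411 and 389 CPM in neuronal nuclei, against 43.8, 31.2, 42.4 and 141 CPM in non-neuronal nuclei (2.91 ± 0.46, adjusted p 0.000432; without the non-neuronal library 4, 3.67). Prkcq, protein kinase C theta, had 219, 153, 106 and 117 CPM in neuronal nuclei, against 17.6, 18.1, 16.3 and 61.9 CPM in non-neuronal nuclei (2.37 ± 0.45, adjusted p 0.00163; without that library, 3.13).

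The remaining members were less uniform. Ano1, the calcium-activated chloride channel that generates the slow waves of these cells, had 406, 466, 269 and 316 CPM in neuronal nuclei, against 128, 139, 155 and 299.5 CPM in non-neuronal nuclei, and the non-neuronal library 4 lay within the neuronal range (1.01 ± 0.31, adjusted p 0.0274). Its call was lost without both libraries numbered 2 (0.75, adjusted p 0.0963) and in 5 of the 8 fits that each left out 1 library, but it held without the non-neuronal library 4 (1.41, adjusted p 0.00249). Gpr20, an orphan receptor of these cells, had 102, 71, 70.5 and 79.1 CPM in neuronal nuclei, against 30.5, 36.3, 20.5 and 115 CPM in non-neuronal nuclei and did not pass (0.67 ± 0.45, adjusted p 0.324), but it passed without the non-neuronal library 4 (1.51, adjusted p 0.00203). Thbs4, a thrombospondin, was called lower, with 11.9, 10.1, 4.43 and 4.93 CPM in neuronal nuclei, against 18.7, 23.2, 13.4 and 46.3 CPM in non-neuronal nuclei (-1.71 ± 0.46, adjusted p 0.013), and lost its call without the non-neuronal library 4 (-1.20, adjusted p 0.0561) or without the neuronal library 4. Slc12a2 and Cacna1h overlapped and did not pass. Mast cells also carry KIT. Of their 6 markers, none had enough counts to test. Summed over 4 libraries, Cpa3 had 20 counts in neuronal and 9 in non-neuronal nuclei, Tpsb2 10 and 0, all 10 in the neuronal library 4, and Ms4a2 18 and 15. Cma1 had 2 counts in neuronal and 7 in non-neuronal nuclei, Mcpt2 0 and 7, and Mcpt4 0 and 3. Their part in the level of Kit was not tested. The non-neuronal library 4 was also the highest of its group for Ret, Unc13a, Chat and the pan-neuronal sum, and the part of this in the values of these genes was not tested.

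Few genes that report RNA source and handling passed. None of the 13 mitochondrially encoded genes passed edgeR's test (median -0.91), 0 were at an unadjusted p below 0.05, and 0 passed with DESeq2 and 1 with limma-voom. With the sample number as a block 12 of them passed as lower in neuronal nuclei, 11 did without the neuronal library 2, and 5 did without both libraries numbered 2. Subunit 1 of cytochrome oxidase, mt-Co1, had 2445, 7403, 1141 and 723 CPM in neuronal nuclei, against 2584, 12856, 2677 and 1348 CPM in non-neuronal nuclei, and library 2 was the high one in both sorts (-0.73 ± 0.79, adjusted p 0.558; with the block -0.75, adjusted p 0.0224). The level of mt-Co3, with 1.32, 809.8, 1.59 and 1.88 CPM in neuronal nuclei, against 366, 2147, 345 and 203 CPM in non-neuronal nuclei, is uncertain. Near-identical nuclear copies can take reads of this gene, and their part in these values was not tested. Cytosolic ribosomal protein genes did not pass (0 of 12, median -0.30), 2 were lower at an unadjusted p below 0.05, 1 was called lower with DESeq2 and 2 with the block, and Rpl3 was at 56.8 to 78.5 CPM in neuronal nuclei, against 43.7 to 82.2 CPM in non-neuronal nuclei. Of immediate early genes, which rise when cells are stimulated or dissociated, Jun (-2.03 ± 0.53, adjusted p 0.0112) and Atf3 (-3.05 ± 0.66, adjusted p 0.0036) were lower in neuronal nuclei, and the other 8 tested, with Fos at 3.64 to 19.7 CPM in neuronal nuclei, against 4.6 to 23.9 CPM in non-neuronal nuclei, did not pass. The background called lower was 14.9%, and the share of immediate early genes was not far from it. Without the neuronal library 2, 5 immediate early genes were lower, and without the non-neuronal library 4, 1 was higher.

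Outside the lists, 2075 genes were called higher with a mean of at least 5 CPM in neuronal nuclei and no overlap of libraries, and 2100 were called lower with that mean in non-neuronal nuclei. Of these, 443 of the higher and 321 of the lower genes carry predicted symbols and are not named. The 12 largest increases with a named symbol were Fbxw23, Srrm3os, Tmem132e, Tmem145, Svop, Nol4, Ffar3, Amer3, Panx2, Ltk, Scgn and Lncenc1. Tmem132e, a transmembrane protein of neurons and hair cells, had 8.36, 11.5, 7.26 and 7.39 CPM in neuronal nuclei, against 0, 0, 0 and 0.124 CPM in non-neuronal nuclei. That is 213 counts in the neuronal group and 1 in the non-neuronal group, a CPM ratio of 194 with an exact 95% counting interval of 34.4 to 7680. Ffar3, the G protein-coupled receptor for short-chain fatty acids, had 174 counts in neuronal nuclei and 1 in non-neuronal nuclei, a ratio of 158 (interval 28 to 6280).

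Svop, a synaptic vesicle protein related to SV2, was at 16.5 to 44.4 CPM in neuronal nuclei, against 0 to 0.591 CPM in non-neuronal nuclei (6.76 ± 0.72, adjusted p 2.66e-05). Ltk, the leukocyte receptor tyrosine kinase, was at 61.8 to 148 CPM in neuronal nuclei, against 0.985 to 2.02 CPM in non-neuronal nuclei (6.21 ± 0.42, adjusted p 2.31e-06), and the pannexin Panx2 at 23.2 to 70.5 CPM in neuronal nuclei, against 0.249 to 0.591 CPM in non-neuronal nuclei (6.27 ± 0.55, adjusted p 6.88e-06). Scgn, the calcium sensor secretagogin of neuroendocrine cells, had 264 counts against 3, a ratio of 79.9 (interval 27.1 to 390.0). Nol4 was at 39.6 to 54.9 CPM in neuronal nuclei, against 0 to 0.871 CPM in non-neuronal nuclei, Tmem145 at 8.36 to 70.8 CPM in neuronal nuclei, against 0 to 0.498 CPM in non-neuronal nuclei and the long non-coding RNA Lncenc1 at 21.3 to 27.3 CPM in neuronal nuclei, against 0.249 to 0.545 CPM in non-neuronal nuclei. Amer3, a partner of the tumour suppressor APC, had 347 counts in neuronal nuclei and 3 in non-neuronal nuclei. Fbxw23 is annotated as a transcribed pseudogene of a multigene family, so that its 548 counts against 2 may include reads of its relatives. Srrm3os lies antisense to Srrm3, and without strand its 258 counts against 1 cannot be told apart from those of Srrm3.

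Among the 12 largest decreases were Gzma, Cd7, Gvin1, Ccl5, Muc16, Gimap3, Il2rb, Tgtp1, Trpv4, Gzmb and Adam33. Gzma, a granzyme of cytotoxic lymphocytes, had 0, 0.65, 0 and 0 CPM in neuronal nuclei, against 9.8, 99.5, 131 and 35.8 CPM in non-neuronal nuclei, and the non-neuronal libraries themselves spread widely (-8.56 ± 1.07, adjusted p 8.54e-05). Cd7, a T and NK cell antigen, had 1 count in neuronal and 247 in non-neuronal nuclei, which is 272 times the CPM in non-neuronal nuclei (interval 48.3 to 10800), and the chemokine Ccl5 of cytotoxic lymphocytes had 2 and 265 counts, 146 times the CPM (interval 40 to 1210). Gimap3, a GTPase of lymphocytes, had 2 and 160 counts, 88.1 times the CPM (interval 24.0 to 733). Il2rb, a subunit of the interleukin-2 receptor, and Gzmb, another granzyme, had at most 0.352 and 1.53 CPM in any neuronal library.

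Muc16, a mucin of mesothelium, had 18, 28.1, 8.68 and 8.92 CPM in neuronal nuclei, against 1512, 1112, 1629.8 and 1298 CPM in non-neuronal nuclei. For Muc16 the log2 fold change was -6.45 ± 0.46 (adjusted p 2.88e-06). Trpv4, an osmotically and mechanically gated channel, had 0.66, 0, 0.177 and 0.117 CPM in neuronal nuclei, against 10.7, 17.1, 7.49 and 17.7 CPM in non-neuronal nuclei. For Trpv4 the log2 fold change was -5.85 ± 0.70 (adjusted p 5.77e-05). Adam33, a metalloprotease of smooth muscle and fibroblasts, had 12.8, 22.1, 12.9 and 1.88 CPM in neuronal nuclei, against 664, 1153, 548 and 359 CPM in non-neuronal nuclei, with the neuronal library 4 as the lowest (-5.78 ± 0.67, adjusted p 4.56e-05). The interferon-induced GTPases Gvin1 and Tgtp1 belong to multigene families whose reads can be split among copies, and they were at 0 to 0.704 CPM in neuronal nuclei, against 12.7 to 57.9 CPM in non-neuronal nuclei for Gvin1 and 0 to 0.886 CPM in neuronal nuclei, against 10.5 to 17.8 CPM in non-neuronal nuclei for Tgtp1.

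Genes called higher in neuronal nuclei were long. Protein-coding genes called higher spanned a median of 50.5 kb of the genome, against 34.7 kb for those called lower and 26.7 kb for all tested. Of the 528 protein-coding genes that span over 300 kb, 45.3% were called higher and 20.3% lower. Of the 3036 that span at most 10 kb, 9.75% were called higher and 13% lower. These shares describe the calls, and no test was run on them.

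**Figure D4:**
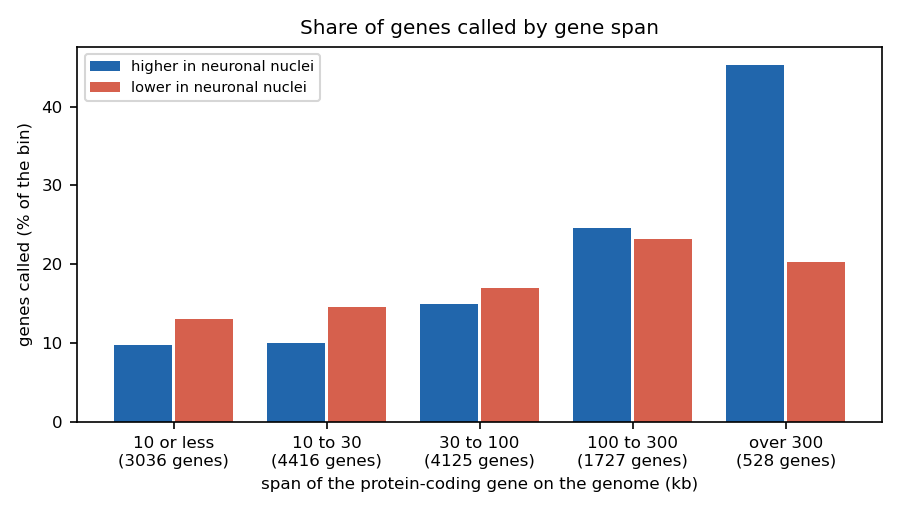
Percent of protein-coding genes called higher (blue) and lower (red) in neuronal nuclei, in 5 bins of the span of the gene on the genome (x axis, kb, with the number of genes tested in each bin). The share called higher is 9.75% at 10 kb or less and 45.3% over 300 kb, and the share called lower lies between 13% and 23.2%.

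The sort effect of Crick small intestine was next set against those of Bern small intestine and of Crick colon, with all 32 libraries in 1 fit, where levels are CPM on the scale of these 32. Both tests use the same 8 Crick small intestine libraries, so they are not independent. Against Bern small intestine 32 of 21521 genes differed (0.149%), 2 (0.00929%) with a larger and 30 (0.139%) with a smaller log2 fold change in Crick small intestine. With the sample number as a block the counts were 0 larger and 3 smaller, and every gene named below lost its call in that fit and with only the 16 libraries of the contrast. In 27 of the 30 genes the Bern non-neuronal group averaged below 1 CPM, and in 8 of them all 4 of its libraries had 0 counts, which allows up to 0.239 CPM over the group. The Bern non-neuronal libraries had 15641 to 18355 genes above 0, against 27272 to 33533 in the Crick non-neuronal libraries, and their part in these calls was not tested.

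Slc29a4, a transporter of monoamines, had 15.4 to 24.3 CPM in Crick neuronal and 0.205 to 2.84 CPM in Crick non-neuronal nuclei, against 34.1 to 67.2 CPM in Bern neuronal nuclei and 0 in all 4 Bern non-neuronal libraries (adjusted p of the difference 0.045, 0.159 with the block, passed in 3 of 16 alternatives). Hsd17b7, an enzyme of cholesterol synthesis, had 19.2 to 27.8 and 5.45 to 11.7 CPM in the Crick sorts, against 5.43 to 27.2 CPM in Bern neuronal nuclei and 0 in Bern non-neuronal nuclei (adjusted p 0.0101, 0.0564 with the block, passed in 14 of 16). Slc25a39 (adjusted p 0.0157, 0.094 with the block, passed in 12 of 16) and Samd12 (0.0232, 0.116 with the block, passed in 8 of 16) also had 0 in all Bern non-neuronal libraries. So did Mccc1os, antisense to Mccc1 and not separable from it (0.0344, 0.0951 with the block, passed in 4 of 16). Sgms2 had at most 0.36 CPM there (adjusted p 0.0101, 0.0689 with the block, passed in 14 of 16). The larger difference with a named symbol was Lurap1, with 6.77 to 10.7 CPM in Crick neuronal and 9.35 to 22.1 CPM in Crick non-neuronal nuclei, against 1.04 to 7.75 CPM in Bern neuronal and 35.4 to 457 CPM in Bern non-neuronal nuclei (difference 4.22 ± 0.94, adjusted p 0.0487, 0.149 with the block, passed in 4 of 16). Of the 387 list members tested 3 differed (0.775%, beside 0.149% of all genes). Sst, Dscam and Dscaml1 had a smaller log2 fold change in Crick, with adjusted p of 0.0466, 0.0232 and 0.0211 (0.104, 0.094 and 0.0664 with the block).

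Against Crick colon 33 genes differed (0.153%), 22 (0.102%) with a larger and 11 (0.0511%) with a smaller log2 fold change in small intestine. With the block the counts were 32 larger and 21 smaller. Of the interstitial cell of Cajal list, 3 of 8 members were larger (Kit, Prkcq and Ano1), with a median difference of 3.36, beside 0.10 over all genes tested and a background of 0.102% called larger. Medians of other lists were as high or near it, at 3.96 for endothelium (2 of 13 larger), 3.53 for macrophages (1 of 12) and 2.90 for lymphocytes (0 of 10). Kit had 567, 411, 356 and 412 CPM in neuronal and 70.3, 47.5, 85.4 and 283 CPM in non-neuronal nuclei of small intestine, against 5.41, 3.62, 2.57 and 15.7 CPM in neuronal and 103, 167, 177 and 189 CPM in non-neuronal nuclei of colon. In colon every neuronal library was below every non-neuronal library, the opposite order to small intestine (difference 6.35 ± 1.09, adjusted p 0.00238, passed in 16 of 16 alternatives). Ano1 had 286 to 480.2 CPM and 136 to 326 CPM in the 2 sorts of small intestine, against 1.64 to 8.65 CPM and 102 to 186 CPM in those of colon (difference 5.73 ± 0.87, adjusted p 0.000241). Prkcq differed by 6.92 ± 1.04 (adjusted p 0.000241). For Etv1 the difference did not pass (1.08 ± 0.53, adjusted p 0.934), and neuronal nuclei of colon had 238 to 362 CPM. In Bern small intestine Kit had 82.5 to 600.1 CPM in neuronal and 54.1 to 478 CPM in non-neuronal nuclei, which overlapped. The Bern sort effect did not pass for Kit (0.47, adjusted p 0.655) or Ano1 (0.44, adjusted p 0.594) in the fit of all 32 libraries. For Kit the difference between Crick and Bern small intestine did not pass either (1.37 ± 1.00, adjusted p 0.591).

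**Figure D5:**
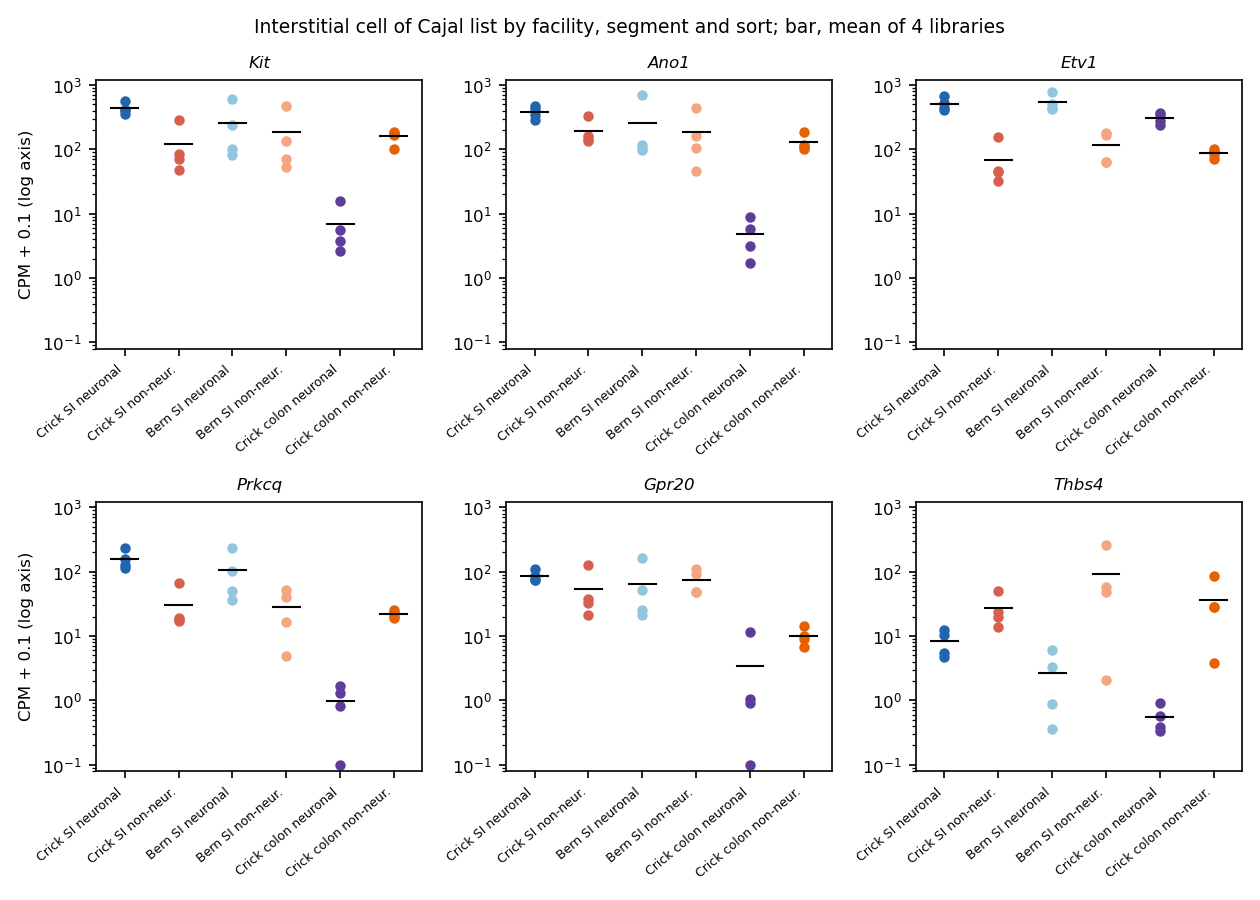
CPM plus 0.1 on a log axis for 6 genes of the interstitial cell of Cajal list in 6 groups of 4 libraries (SI, small intestine; non-neur., non-neuronal), with bars at the mean. Kit is at 356 to 567 CPM in neuronal nuclei of Crick small intestine and at 2.57 to 15.7 CPM in neuronal nuclei of Crick colon, whereas Etv1 is above 200 CPM in the neuronal nuclei of both segments.

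The other named genes with a larger signed log2 fold change in small intestine were Sytl2, Lyve1, Glis3 and Prox1. In that order the values were 0.35, -1.42, 0.98 and -0.47 in small intestine in the fit of all 32 libraries. In colon they were -7.17, -8.01, -5.56 and -6.42. None of these small intestine values passed in that fit, and every colon value did. Sytl2, a synaptotagmin-like effector of vesicle docking, had 93.2 to 229 CPM in neuronal and 105 to 146 CPM in non-neuronal nuclei of small intestine, against 0.577 to 3.06 CPM in neuronal and 181 to 298 CPM in non-neuronal nuclei of colon (difference 7.52 ± 1.07, adjusted p 0.00011). Lyve1, a hyaluronan receptor of lymphatic vessels and some macrophages, was low in small intestine, at 1.38 to 5.08 CPM in neuronal and 5.18 to 11.8 CPM in non-neuronal nuclei, against 0.577 to 1.61 CPM in neuronal and 93.5 to 434 CPM in non-neuronal nuclei of colon (difference 6.58 ± 0.95, adjusted p 0.000134). Prox1, the transcription factor of lymphatic endothelium, had 5.27 to 18.6 CPM in neuronal and 4.8 to 17 CPM in non-neuronal nuclei of small intestine, which overlapped, against 0.721 to 2.34 CPM in neuronal and 94.6 to 183 CPM in non-neuronal nuclei of colon (difference 5.95 ± 1.12, adjusted p 0.00819). Glis3, a zinc finger factor, differed by 6.54 ± 1.43 (adjusted p 0.0385). Of 16 alternatives Sytl2 passed in 16, Lyve1 and Prox1 in 15 and Glis3 in 8.

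Smaller signed log2 fold changes in small intestine were named for Grm8, Pde1c, Sema3e, Dgkb, Fras1 and Thsd7b. In that order the values were -4.19, -1.09, -2.52, -1.53, -0.35 and 0.16 in small intestine in the fit of all 32 libraries. In colon they were 1.97, 3.45, 1.96, 1.93, 3.01 and 2.91. In that fit Grm8, Sema3e and Dgkb passed in small intestine, and all but Grm8 passed in colon. Grm8, a presynaptic metabotropic glutamate receptor, had 5.1, 7.36, 1.69 and 3.51 CPM in neuronal and 93.5, 107, 55.1 and 67.9 CPM in non-neuronal nuclei of small intestine, against 12, 12.5, 7.96 and 23.4 CPM in neuronal and 3.56, 3.9, 1.63 and 4.96 CPM in non-neuronal nuclei of colon. Grm8 was thus lower in neuronal nuclei of small intestine. In colon every neuronal library was above every non-neuronal library, but the sort effect did not pass in the fit of all 32 libraries (adjusted p 0.0563). The difference between the segments was -6.16 ± 1.08 (adjusted p 0.00296). Pde1c, a calmodulin-dependent phosphodiesterase, had 38 to 53.8 CPM in neuronal and 72.9 to 128 CPM in non-neuronal nuclei of small intestine, against 291 to 564 CPM and 16.8 to 61 CPM in those of colon (difference -4.54 ± 0.65, adjusted p 0.00011). Dgkb, a diacylglycerol kinase, differed by -3.46 ± 0.61 (adjusted p 0.00344), Sema3e by -4.48 ± 0.92 (adjusted p 0.0206), Fras1, an extracellular matrix protein, by -3.36 ± 0.69 (adjusted p 0.0196) and Thsd7b by -2.75 ± 0.61 (adjusted p 0.0451). Of 16 alternatives Grm8, Pde1c and Dgkb passed in 16, Fras1 in 13, Sema3e in 11 and Thsd7b in 5, and Thsd7b was lost in each of the 8 fits without 1 library (adjusted p 0.0673 to 0.12).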

How the data were processed

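Nuclear RNA of 32 libraries was sequenced, and 8 of them, the neuronal and non-neuronal nuclei of Crick small intestine, are described here. The values are expected counts by Ensembl gene in 1 table that the authors deposited, and they come from RSEM per the file headers. RSEM 1.3.0, STAR 2.5.2, DESeq2 1.10.1 and the build GRCm38 are named in the submitters' processing notes, and the treatment of introns and of reads with several targets is not given in the sources used here. Expected counts were rounded to whole numbers. Of 51912 identifiers 51719 were matched to GENCODE M21 for symbols and gene spans, and 193 were not. Genes were filtered with filterByExpr and tested with edgeR 4.0.16 (R 4.3.3), using TMM scaling and its quasi-likelihood test, with p-values adjusted over all genes tested (Benjamini-Hochberg, threshold 0.05). Standard errors were obtained from the F statistic, as the absolute log2 fold change over its square root. The sort effect was fitted on the 8 libraries, and the differences from Bern small intestine and Crick colon as interaction terms on all 32. The fits were tested on simulated data before use.

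Samples were grouped by their titles. The labels do not say whether the libraries came from separate mice, so p-values measure the spread between these libraries, which may be technical. Deviations from the group means of the neuronal and non-neuronal library of the same number correlated at 0.315, 0.709, 0.304 and 0.281 over 10685 genes, and those of different numbers at -0.577 to 0.301. Every matched pair was above 0.1, and the numbers were taken to pair the libraries. That is an assumption, since neuronal library 3 and non-neuronal library 4 also correlated, at 0.301, above the matched pair numbered 4. The main calls are therefore from the fit without a block. The fit with the number as a block is given where it changes the call of a gene described above. The other alternatives were DESeq2 1.42.0, limma-voom (limma 3.58.1), DESeq2 size factors, no filter on low counts, no mitochondrially encoded genes, both libraries numbered 2 left out, each of the 8 libraries left out, and the choice of libraries in the fit.

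The 32 gene lists, with 412 genes, and the comparisons were chosen with earlier results of these data known. Named genes were the 136 key genes of the lists, list members called against the direction of most of their list, outside the lists the 12 genes that rose most and the 12 that fell most with a mean of at least 5 CPM and no overlap, and the 6 largest differences in each direction. Genes with predicted symbols were counted only, and some genes that this rule names are not reported here. Ratios of genes with 1 to 3 counts in a group carry exact 95% counting intervals. Promoter sequences are from RefSeq on GRCm38.p6, which held 32851 promoters of 27025 genes.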

Additional observations from a re-analysis of the deposited data

Results flagged for a closer look

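Among groups of 4 libraries, 22 of 170 tested had a library far from the other 3 by Dixon's gap test at 95%. Chance flags about 1 in 20 groups if they are independent and their values normally distributed. These groups share the same 8 libraries and some hold few counts, so their number cannot be set against that rate. The non-neuronal library 4 was the high one for 9 genes of the neuronal and interstitial cell of Cajal lists, with 261 CPM of Kit against 46.1 to 82.1 CPM in the other non-neuronal libraries. It also had 299.5 CPM of Ano1, 141 CPM of Etv1, 61.9 CPM of Prkcq and 115 CPM of Gpr20. Its values for neuronal genes were 26.1 CPM of Ret, against 2.72 to 4.03 CPM in the others, 25.7 CPM of Unc13a, 7.71 CPM of Gal and 1.99 CPM of Chat. For Tmem132e it was the only non-neuronal library above 0, at 0.124 CPM.

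The non-neuronal library 2 was the high one for Ebf3 at 12.9 CPM, Hand2 at 86.2 CPM, Gdnf at 20.4 CPM, Sox10 at 50.9 CPM and mt-Co1 at 12856 CPM, and for the smooth muscle sum at 25308 CPM, against 7778 to 10704 CPM in the other non-neuronal libraries. The neuronal library 2 was the high one for Syn1 at 138 CPM, Sox10 at 2.76 CPM, Esrp1 at 7.47 CPM and Gzma at 0.65 CPM, where the other neuronal libraries had 0. The non-neuronal library 1 was the low one for Csf1r at 16.2 CPM and for the macrophage sum at 147 CPM, against 290.0 to 315 CPM in the other 3.

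The sort effect differed from that of Bern small intestine, by the interaction test of edgeR's quasi-likelihood fit, for Hsd17b7 (adjusted p 0.0101), Sgms2 (0.0101), Slc25a39 (0.0157), Samd12 (0.0232), Mccc1os (0.0344), Slc29a4 (0.045) and Lurap1 (0.0487). All 7 lost this call with the sample number as a block (adjusted p 0.0564 to 0.159) and with only the 16 libraries of the contrast. It differed from that of Crick colon for Sytl2 (adjusted p 0.00011), Pde1c (0.00011), Lyve1 (0.000134), Prkcq (0.000241), Ano1 (0.000241), Kit (0.00238), Grm8 (0.00296), Dgkb (0.00344), Prox1 (0.00819), Fras1 (0.0196), Sema3e (0.0206), Glis3 (0.0385) and Thsd7b (0.0451).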

How the results depend on the processing

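The counts of genes higher and lower in neuronal nuclei stayed within 1.5 times under every alternative run (2298 to 2787 higher and 2180 to 3107 lower as each library was left out, 3196 and 3283 with the sample number as a block), except with all 32 libraries in 1 fit, which gave 1404 higher and 1090 lower. Of the 152 named genes 119 stayed on the same side of the threshold in every alternative that tested them, which includes genes that never passed. No gene that passed in the main fit or in an alternative changed sign between them. Among genes that passed in neither, 32 values had the other sign. Of 297 called genes of the lists or named outside them, 26 lost their call without at least 1 library, 1 with the block and 65 with all 32 libraries in 1 fit. Differences from Bern small intestine were unstable, at 115 larger and 326 smaller with DESeq2, 98 and 128 with no filter, 0 and 8 without both libraries numbered 2, 0 and 3 with the replicate block, 0 and 0 with only the 16 libraries of the contrast (931 and 1342 at an unadjusted p below 0.05 in edgeR), and 18 smaller without mitochondrially encoded genes. Leaving out each library gave 0 larger and 4 to 16 smaller. Differences from Crick colon numbered 95 larger and 28 smaller with DESeq2, 38 and 21 with limma-voom, 155 and 28 with no filter, 12 and 3 without both libraries numbered 2, 434 and 93 with only the 16 libraries, and 32 and 21 with the block, and 16 to 26 larger and 4 to 8 smaller as each library was left out. The cause was not tested. The median over all genes of the difference from Bern was -0.08, and -0.50 with limma-voom and -0.46 with the block. Library totals limit genes near 3 counts.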
